A study of Mus musculus with 28 samples.

Results

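Müller glial cells (MGCs), the main glia of the retina, are a known source of secreted factors that act on photoreceptors and other neurons. The signals of 9 growth factor and receptor genes were followed in single MGCs from normal and degenerating mouse retinas: the secreted heparin-binding factors Ptn (pleiotrophin) and Mdk (midkine), their receptor phosphatase Ptprz1, the secreted factors Igf1, Bdnf, Gdnf, Fgf2 and Vegfa, and Ntrk2, the receptor tyrosine kinase for BDNF. These 9 were listed by name, of 18194 genes measured by a probe set with a single gene symbol. Ptn was chosen by its low signals in MGCs of 8-week Rhod-ko retinas and most of the others by being silent, so their signals in these arrays are a description and carry no test.

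Pleiotrophin and midkine form a family of their own. Both bind heparan and chondroitin sulfate chains, and PTPRZ1, LRP1, syndecans, nucleolin and the kinase ALK are among their known binding partners. BDNF signals through NTRK2 and NGFR, GDNF through GFRA coreceptors with RET or NCAM1, and the FGF, IGF and VEGF proteins through the receptor kinases FGFR, IGF1R, and KDR or FLT1. In retinal degeneration such factors have long been studied for their effects on photoreceptor survival, and MGCs respond to injury by gliosis, a change of state marked by the filament gene Gfap.

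By RefSeq coordinates on GRCm38.p6, Ptn lies at chr6:36714924-36810179 and Ptprz1 at chr6:22875315-23052916. Mdk lies at chr2:91929805-91932297, Bdnf at chr2:109674700-109727043, Fgf2 at chr3:37348477-37410106, Igf1 at chr10:87858265-87937047, Ntrk2 at chr13:58806472-59133970, Gdnf at chr15:7810048-7837580 and Vegfa at chr17:46016993-46032377. The array carries 3 probe sets for Ptn, 3 for Ptprz1, 4 for Igf1, 2 for Bdnf, 2 for Vegfa, 8 for Ntrk2 and 1 each for Mdk, Gdnf and Fgf2. The signal of a gene is that of its strongest probe set in the cell, in the linear units of the deposited arrays, and signals from 2000 upward are called on. Signals of different probe sets are not comparable in level, so different genes are not compared with each other in level. The strongest probe set of a gene can differ between cells, and values of the gene then come from different probe sets.

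The 28 arrays each hold the amplified cDNA of 1 cell that was picked by its shape after papain dissociation. The 5 WT cells came from adult C57/BL6 retinas, older than 25 weeks by the labels but only of a much lower minimum age by the paper, and had been published earlier by the same laboratory, so source study and genotype cannot be told apart in comparisons with WT. The Rhod-ko mice, for which the paper names no strain, lack the rod-specific rhodopsin gene. They gave 5 cells at 8 weeks, at the peak of rod death, and 5 at 25 weeks, at the peak of cone death. The rd1 mice, FVB animals with a mutation in the beta subunit of cGMP phosphodiesterase, gave 5 cells at P13 (postnatal day 13) and another 5 at 5 weeks. Congenic FVB mice with an intact Pde6b (FVB.129P2-Pde6b+ Tyr c-ch/AntJ) gave 3 cells at P13. A control of 8 weeks or 5 weeks was not analysed here, so age, and for rd1 at 5 weeks also strain, cannot be told apart from genotype. Whether Rhod-ko and WT cells also differ in strain is not stated by the paper. Retinas came from several litters, but no source ties a cell to an animal. Each group therefore counts as 1 sample of several cells, and groups are described by the values of their cells with no test.

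The rd1 5-week arrays A5 and A6 had a Pearson r of 0.989 (log2 signals floored at 100), against at most 0.764 for the 377 other pairs, and were averaged to 1 cell, which leaves 27 cells. Of 19 MGC markers, 14 to 19 were on in the WT, Rhod-ko and rd1 5-week cells. The 3 congenic FVB cells had 4 to 8 on, together with 10 or 11 of 14 vascular markers, and rd1 P13 cells A1 and B1 had 11 and 10 vascular markers but only 8 and 5 MGC markers on. The markers of these 5 cells thus went against their label, while the other 3 rd1 P13 cells had 15 to 17 MGC markers on. Rlbp1, the retinaldehyde-binding protein gene of MGCs, was on in only 2 of 5 WT cells. The ratio of the 3′ to the 5′ Gapdh control probe sets was 3.95 to 18.2 in the Rhod-ko 8-week cells. It was 0.554 to 4.06 in WT and 1.17 to 3.00 in all other groups. The same ratio for actin was 85.4 and 205 in 8-week cells 3 and 8, above all cells of other groups. In 8-week cells 2, 1 and 7 it was 9.36, 0.528 and 9.16, against 0.0829 to 2.63 in WT and up to 17.4 in rd1 at P13. The median signal over all genes was 202 to 390 in the 8-week cells, against 54.3 to 120 in the cells of the Rhod-ko 25-week, congenic FVB and rd1 groups and 81.8 to 357 in WT.

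Ptn was on in 21 of 27 cells, and in no Rhod-ko 8-week cell. The WT cells MG1, MG16, MG22, MG15 and MG3 had Ptn signals of 42347, 21307, 28699, 30691 and 16028. The Rhod-ko 8-week cells 2, 1, 3, 7 and 8 had 1028, 1630, 1854, 867 and 497. The highest of them lay below the lowest WT cell, and the groups did not overlap. The Rhod-ko 25-week cells A1 to A5 had Ptn signals of 7708, 16707, 6660, 18692 and 14904, so all 5 were on and every one lay above every 8-week cell.

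**Figure D1:**
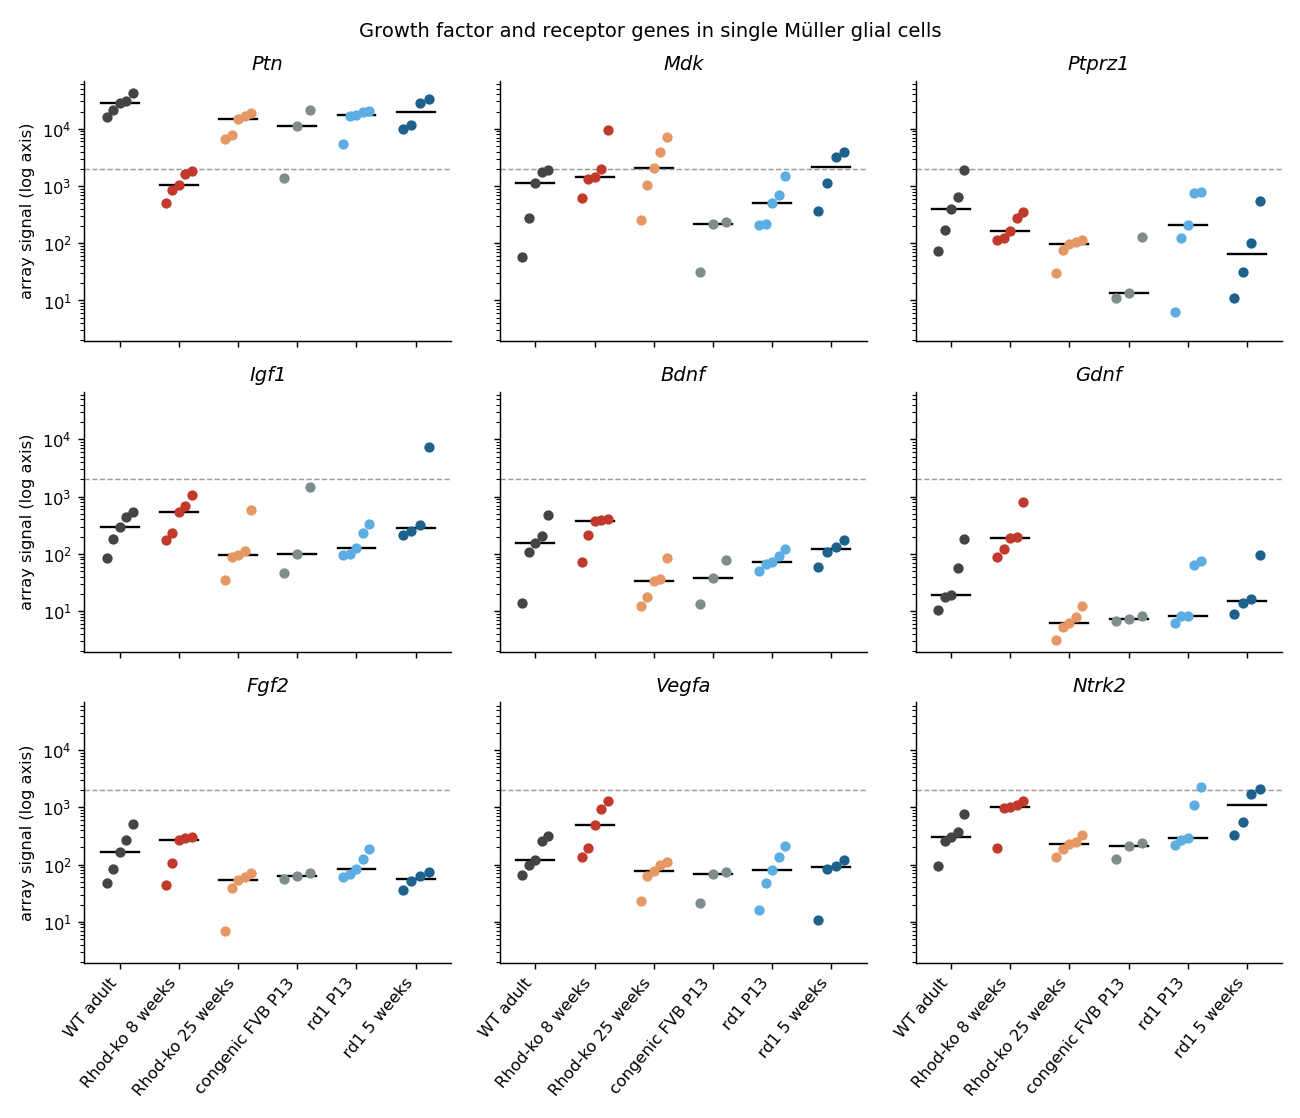
Array signal (log axis, linear MAS5 units) of the 9 listed genes in 27 single cells by group; each point is 1 cell, bars are group medians and the dashed line is the threshold of 2000. Ptn lies between 497 and 1854 in the 5 Rhod-ko 8-week cells and between 16028 and 42347 in the 5 WT cells, and Bdnf, Gdnf and Fgf2 stay under 1000 in every cell.

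The median Ptn signal was 28699 in WT, 1028 in Rhod-ko at 8 weeks and 14904 in Rhod-ko at 25 weeks. On the log2 scale after a floor of 1000, the difference of the 8-week median from WT was -4.80 (27.9-fold lower) and the 25-week median was 3.86 above that at 8 weeks (14.5-fold). Of all 18194 genes, 5.12% had medians at least 2-fold lower and 6.17% at least 2-fold higher in Rhod-ko at 8 weeks than in WT. From 8 to 25 weeks in Rhod-ko 7.33% were at least 2-fold higher and 4.16% lower. After the same floor 95 genes (0.522%) had every 8-week cell below every WT cell. Of the 234 genes on in every WT cell, 27 (11.5%) were on in no 8-week cell, Ptn among them, and 113 were on in all 5. As these shares include the contrast that chose Ptn, they only place it among the other genes.

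Of those 27 genes, 10 were on in every Rhod-ko 25-week cell, and 5 of the 10 also in every rd1 5-week cell. Beside Ptn, the 5 were Hnrnpa0 and Hnrnpa2b1, both RNA-binding proteins of the nucleus, the long noncoding RNA Norad, and Pnrc2, a coactivator of nuclear receptors with a part in mRNA decay, named after their values were seen. Their median signals were 8024, 11595, 16774 and 11814 in WT and 205, 493, 1206 and 191 in Rhod-ko at 8 weeks.

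Technical values were set beside the low Ptn signals. The lowest Ptn signals, in Rhod-ko 8-week cells 7 and 8, came with the highest 3′ to 5′ Gapdh ratios, 18.2 and 13.8. Cells 2, 1 and 3 had ratios of 6.17, 3.95 and 7.49 with Ptn signals of 1028, 1630 and 1854. Among these the highest ratio thus came with the highest Ptn signal. The part of the ratios in the result was not tested. The ratios of the 8-week and WT cells overlapped only between cell 1 (3.95, Ptn 1630) and WT cell MG3 (4.06, Ptn 16028).

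Genes of other cell types were also on in some 8-week cells. Rhod-ko 8-week cell 7 had 6 of 16 microglia markers on, with a summed signal of 288397, against 0 or 1 marker in every other cell of the series. Of 13 rod markers the 8-week cells had 2 to 9 on and the WT cells 1 to 3, with summed signals of 39901 to 294911 and 12429 to 57646. Without cells 7 and 8, which had the most rod markers on (9 and 8), the median Ptn difference from WT was -4.14. The other 3 cells had 2 to 4 rod markers on. In the rd1 P13 cells, all with Ptn on, 8 to 10 rod markers were on. The congenic FVB P13 cells, 2 of 3 with Ptn on, had 6 to 11 on. The part of these genes in the result was not tested. Of the 19 MGC markers 14 to 16 were on in the 8-week cells. By group medians 9 of the 19 were at least 2-fold lower than in WT and 5 higher, with a median difference of -0.58. The median difference over all genes is 0 by the floor, under which most genes lay, and gives no comparison. Car2, a carbonic anhydrase gene, was lowest (-3.97) and Rlbp1 highest (6.76). Aqp4, the water channel of MGC endfeet, had a median of 4866 there against 62361 in WT, and Sox2 4720 against 41068.

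Scaling moved the count of 8-week cells with Ptn on but left the groups apart. After quantile normalization 2 of 5 cells passed 2000, with a range of 195 to 2605 against 17958 to 35736 in WT. With every array scaled to the same 90th percentile, 2 of 5 passed as well, with 586 to 2396 against 21602 to 118976. The median difference from WT was -4.47 and -5.27 under these scalings.

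In the rd1 model Ptn stayed on. The rd1 P13 cells B4, A4, A1, B3 and B1 had Ptn signals of 20456, 17419, 16922, 19699 and 5520. The congenic FVB P13 cells A3, A4 and A5 had 1361, 21626 and 11380. Control cell A3 was thus off, A4 exceeded every rd1 cell and A5 exceeded only B1, so the groups overlapped. The rd1 median was 0.61 higher on the log2 scale. At P13, 4.79% of all genes were at least 2-fold higher in rd1 and 6.41% lower. Leaving out congenic cell A4 or A5 moved the difference to 2.15 or 1.68. All 3 congenic cells and rd1 cells A1 and B1 carried most vascular markers, and without those 2 rd1 cells the difference was 0.79.

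At 5 weeks the rd1 cells A1, A5/A6, B1 and A8 had Ptn signals of 11587, 28216, 9964 and 32913, which overlapped the WT cells. With 4 cells the median is the midpoint of the middle cells, taken on the log2 scale for differences and on the linear scale where a signal is given. The difference of medians from WT was -0.67 (log2), short of the 2-fold call, and -1.31 when cell A5/A6 or A8 was left out. For this comparison 6.35% of all genes were at least 2-fold higher and 4.25% lower than in WT. For Rhod-ko at 25 weeks the difference of the median Ptn signal from WT was -0.95, where 7.9% of all genes were higher and 3.7% lower by the same rule. All 5 of these cells lay below the WT median, but 2 of them, A2 and A4, exceeded WT cell MG3. Without A2, A4 or A5 the difference was -1.42, -1.42 or -1.34, and scaling to the same 90th percentile gave -2.04, so its side of the 2-fold line was not stable. The 3 comparisons with WT share the same 5 WT cells.

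By group median, Ptn ran from WT (28699) through rd1 at 5 weeks (19901), rd1 at P13 (17419), Rhod-ko at 25 weeks (14904) and congenic FVB at P13 (11380) to Rhod-ko at 8 weeks (1028). The ranges of each neighbouring pair in this order overlapped. This includes the last pair, since congenic cell A3 (1361) fell among the 8-week Rhod-ko cells. Rhod-ko at 8 weeks had no overlap with WT, Rhod-ko at 25 weeks or either rd1 group.

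Nearly all of the Ptn signal came from 1 probe set, 1448254_at. It gave the highest value in every cell but Rhod-ko 8-week cells 7 and 8, where it read 196 and 241 and where 1443173_at set the values of 867 and 497. Probe set 1443173_at was on only in WT cell MG22, at 18382, and read at most 867 elsewhere. The third, 1416211_a_at, was on in 6 cells, with a maximum of 4060 in rd1 P13 cell A1, and read 36.1 to 1935 in WT against 40.5 to 479 in Rhod-ko at 8 weeks. With 1416211_a_at alone the log2 difference of the 8-week from the WT median was -0.0027, and with 1443173_at alone it was 0. The floor set both values, so they do not tell whether these probe sets differed. Before the floor the medians of 1416211_a_at were 53.2 in Rhod-ko at 8 weeks and 1001.9 in WT. Those of 1443173_at were 435.6 and 170.2, a difference in the other direction.

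**Figure D2:**
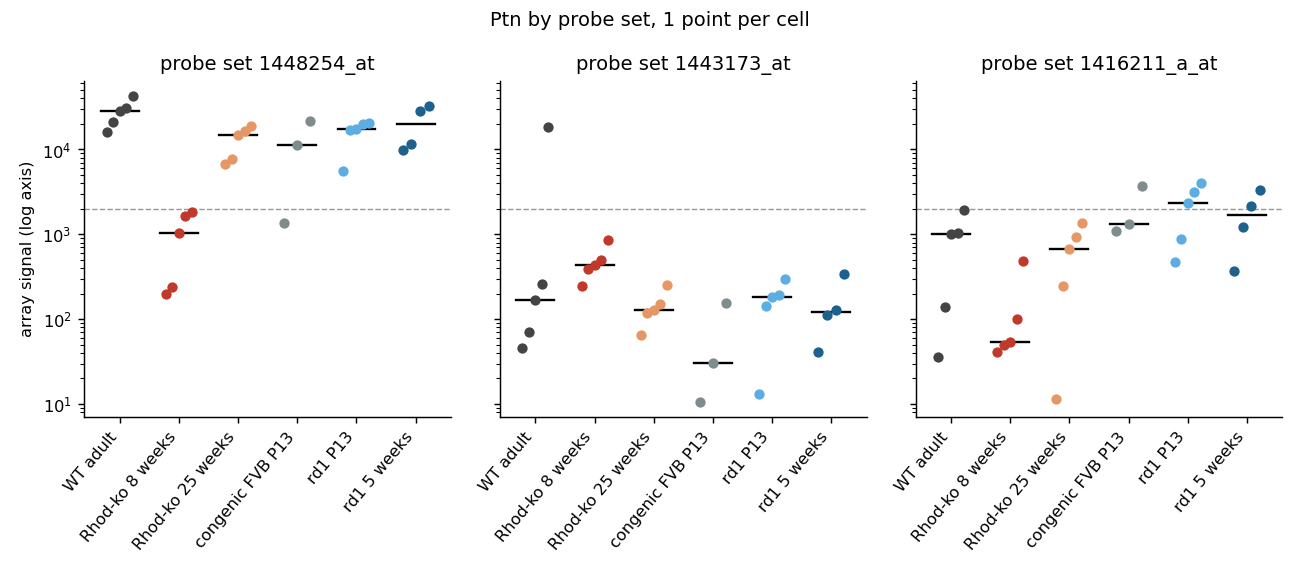
Array signal (log axis, linear MAS5 units) of the 3 Ptn probe sets in 27 single cells by group; each point is 1 cell, bars are group medians and the dashed line marks 2000. Probe set 1448254_at separates the 5 Rhod-ko 8-week cells from the 5 WT cells, while 1443173_at passes 2000 in 1 WT cell and 1416211_a_at in 6 cells.

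The genes whose log2 signals ran most like Ptn over the 27 cells, of 5225 others on in at least 5 cells, were Ctso, a cysteine protease (r = 0.82), the clathrin heavy chain gene Cltc (0.82), Norad (0.78), Hnrnpa2b1 (0.78) and the immediate early gene Fos (0.77). The lowest were Midn (r = -0.76), Ift22 (-0.71) and Rabep2 (-0.71). Cells of a group share their array properties, and much of the likeness lay in the 8-week cells: over the other 22 cells r was 0.62 for Ctso, 0.38 for Cltc, 0.33 for Norad, 0.15 for Hnrnpa2b1 and 0.47 for Fos. Gfap had r = -0.38 with Ptn over all 27 cells and 0.01 without the 8-week cells.

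Mdk, the relative of Ptn, was on in 6 of 27 cells. None of the 5 WT cells passed, at 1141, 1937, 57.5, 277 and 1758 in the order used above. At 8 weeks the Rhod-ko cells had Mdk signals of 608, 1420, 9699, 1303 and 1992, so only cell 3 was on, with the highest Mdk signal of all cells. Rhod-ko cells at 25 weeks had 1022, 2042, 3934, 7160 and 256, with A2, A3 and A4 on. At 5 weeks rd1 cells A1 and A5/A6 were on (3902 and 3174) and B1 and A8 were not (1109 and 362).

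At P13 no cell was on, with Mdk signals of 207 to 1518 in rd1 and 31.0 to 234 in the congenic cells. The difference of medians from WT was 0.32 (log2) in Rhod-ko at 8 weeks, 0.84 at 25 weeks and 0.72 in rd1 at 5 weeks, all short of 2-fold, and the cells of each group overlapped those of WT. Single cells decided 2 of these values: without Rhod-ko 25-week cell A1 or A5 the difference was 1.31, and without rd1 5-week cell B1 or A8 it was 1.48. Over the 27 cells Mdk and Ptn had r = -0.14, and 0.18 without the 8-week Rhod-ko cells.

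Genes most like Mdk were the homeobox gene Meis1 (r = 0.76), the sphingosine phosphate receptor gene S1pr3 (0.72), Cotl1, which binds actin filaments (0.69), Scrn1 (0.69) and the lysosomal fucosidase gene Fuca1 (0.68). The lowest were Ccser2 (r = -0.77), Klhl5 (-0.70) and Pir (-0.68). Unlike for Ptn, the 5 highest stayed between 0.65 and 0.78 over the 22 cells without Rhod-ko at 8 weeks. Those 22 still held the congenic P13 cells with their vascular markers. There the group medians of Mdk (220), Meis1 (93.9), S1pr3 (63.9), Cotl1 (874) and Scrn1 (38.6) were the lowest, while Fuca1 was lowest in WT. Ccser2 (3067), Klhl5 (6084) and Pir (3160) had their highest medians in the congenic cells. The part of these cells in the likeness was not tested.

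Of the 9 genes, 5 were on in no cell: Ptprz1, Bdnf, Gdnf, Fgf2 and Vegfa. Among all genes 42.2% were on in no cell, so silence at this threshold was common, and a signal under 2000 does not show that the RNA was absent. Ptprz1, the receptor of pleiotrophin on glia and neurons, came closest in WT cell MG22, at 1880, and was at most 788 in the other 26 cells. Its median was 398 in WT, 162 and 98.1 in Rhod-ko at 8 and 25 weeks, and 209 and 65.0 in rd1 at P13 and 5 weeks.

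Bdnf, a neurotrophin, had its highest signal in WT cell MG3 at 487. Gdnf, the ligand of the GFRA1 and RET receptors, reached 805 in Rhod-ko 8-week cell 8 and at most 196 elsewhere. Fgf2, the basic fibroblast growth factor, reached 508 in WT cell MG3. Vegfa, the main growth factor of vessels, reached 1295 and 939 in Rhod-ko 8-week cells 7 and 1 and at most 499 in the other 25 cells.

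Under the threshold the medians of Bdnf, Gdnf, Fgf2 and Vegfa were highest in Rhod-ko at 8 weeks, at 370, 193, 267 and 499, and at 25 weeks the single cells read 12.2 to 86.5, 3.10 to 12.1, 6.80 to 70.4 and 23.6 to 109. The same arrays had the raised median over all genes given above, and the part of that shift in these readings was not tested. After the floor of 1000 the difference of medians was 0 in all 5 comparisons for every member other than Ptn, Mdk and Ntrk2. Beside the percentages of all genes given above, 1 of 9 members was at least 2-fold lower in Rhod-ko at 8 weeks than in WT, 1 was higher at 25 than at 8 weeks, and both were Ptn.

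**Figure D3:**
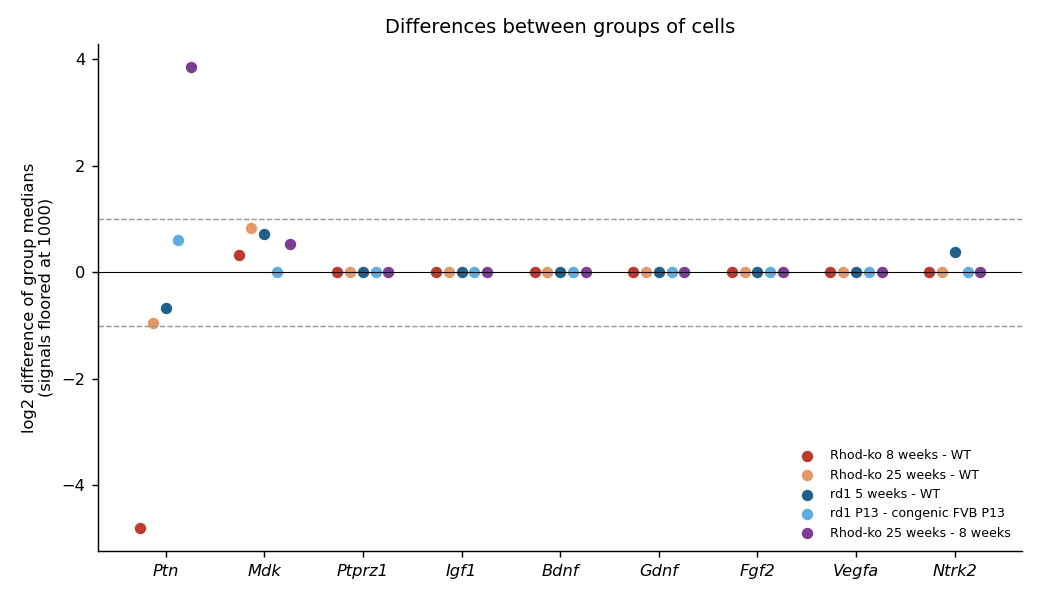
Difference of group medians (log2, signals floored at 1000) of the 9 listed genes in 5 comparisons; each point is 1 comparison and dashed lines mark a 2-fold difference. Ptn in Rhod-ko at 8 weeks lies at -4.80 against WT and at 3.86 for 25 against 8 weeks, and every other point lies between -1 and 1.

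Igf1 and Ntrk2 were on in single cells. Igf1, insulin-like growth factor 1, read 7428 in rd1 5-week cell A1, all of it from 1 of 4 probe sets, 1437401_at. Its next highest signals were 1473 in congenic FVB P13 cell A3 and 1091 in Rhod-ko 8-week cell 8, and the other 24 cells lay under 1000. Ntrk2 passed in rd1 P13 cell B4 (2292) and rd1 5-week cell A8 (2096), with rd1 5-week cell A1 next at 1685. Probe set 1435196_at was the only one of 8 for Ntrk2 on in any cell.

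WT cells had Ntrk2 signals of 372, 94.4, 257, 303 and 767, and Rhod-ko 8-week cells 198, 1094, 980, 1001 and 1285, above all WT cells in 4 of 5. All of these lay under 2000. The part of the raised median over all genes of the 8-week arrays in them was not tested. At 5 weeks the rd1 cells read 1685, 324, 553 and 2096, with a median 0.38 (log2, floored) above WT. The signals of 1685 and 2096 came from 1435196_at, which was not the strongest probe set in any WT or Rhod-ko 8-week cell. This difference therefore sets different probe sets against each other. With a floor of 500, which replaced the WT median of 303, the 8-week median of Ntrk2 was 1.00 above WT and counted as 2-fold. Its ligand gene Bdnf was off in all of these cells.

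The list of known partners of pleiotrophin and midkine held 20 genes, written from general knowledge with earlier results of these data known. Of these, 2 were at least 2-fold higher and 1 lower in Rhod-ko at 8 weeks than in WT. Over all genes 6.17% were higher and 5.12% lower in this comparison. The shares given above for the other comparisons apply to the counts of this and every later list. A median under 1000 is replaced by the floor, which then sets that side of the difference, also for genes called higher. In WT this holds for Lrp1, Sdc4 and Cspg5, and in the later lists for Igf2, Igfbp5, Kdr, Pgf, Vegfb, Psap and Cntfr. For 13 of the 20 both medians lay under the floor, which sets the median difference of the list at 0. Lrp1, an endocytic receptor that binds both factors, was off in all 5 WT cells (140 to 395). In Rhod-ko at 8 weeks cells 3, 7 and 8 were on, at 16358, 8710 and 37831. All 5 cells at 25 weeks (2858 to 6119) and all 4 rd1 cells at 5 weeks (2520 to 5392) were on. Its median difference from WT was 3.12, 2.23 and 1.85. Itgav, the integrin alpha V chain, was on in every Rhod-ko 8-week cell and its median difference from WT was 1.38 there and -1.08 at 25 weeks. The nucleolin gene Ncl was on in every Rhod-ko cell of both ages and in 3 of 5 WT cells.

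Sdc2, a syndecan, was on in 3 of 5 WT cells (15889, 20751 and 15891 in MG1, MG22 and MG3), and its median difference from WT was -3.99 in both Rhod-ko groups and in rd1 at 5 weeks, where the floor sets this value. Rhod-ko at 25 weeks had 3 partners higher and 2 lower than WT. Another syndecan, Sdc4, was on in all 5 of its cells (3558 to 13418) and in 1 of 5 in each of WT and Rhod-ko at 8 weeks, a median difference of 3.49 from both. Cspg5, a neuronal and glial chondroitin sulfate proteoglycan, was off in WT (66.9 to 433) and on in 5 of 5 Rhod-ko 25-week cells (2383 to 12103), with a difference of 2.39, and in 3 of 4 rd1 5-week cells, with 1.87. In rd1 at 5 weeks 2 partners were higher and 2 lower, the latter Sdc2 and Ncl (-1.99). From 8 to 25 weeks in Rhod-ko Sdc4 and Cspg5 were higher and Itgav lower.

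At P13, 4 partners were higher and 6 lower in rd1 than in the congenic cells. Those highest in the congenic cells were Ptprb, the endothelial receptor phosphatase (-4.59), Itga6 (-2.60) and Ncl (-1.80), next to the vascular markers that these cells carried. Ptprb was on in all 3 congenic cells (22491 to 28895), in rd1 cells A1 and B1 (23070 and 28880), the other cells with vascular markers, and in none of the remaining 22. Those higher in rd1 were led by Itgav (2.25), Lrp1 (1.51) and Sdc4 (1.47).

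**Figure D4:**
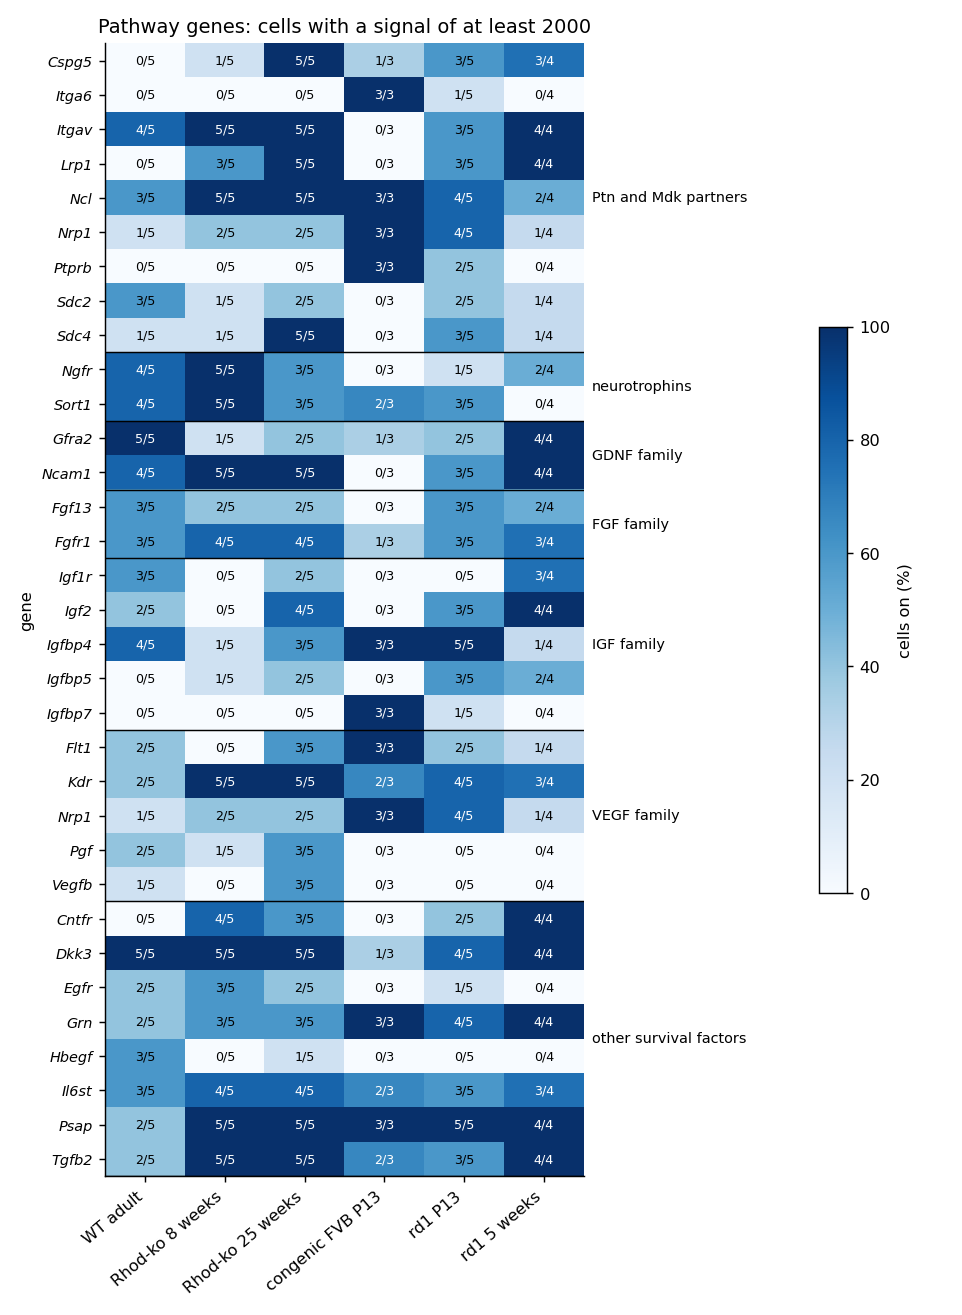
Number of cells with a signal of at least 2000 for pathway genes that were on in 3 or more cells of some group; colour is the percentage of cells of a group, rows are genes by list (Nrp1 stands in 2 lists) and columns are groups. Gfra2 is on in 5 of 5 WT cells and 1 of 5 Rhod-ko 8-week cells, and Lrp1 in 0 of 5 WT cells and 5 of 5 Rhod-ko 25-week cells.

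Among 6 measured neurotrophin genes, none differed 2-fold from WT in either Rhod-ko group, and 2 were lower in rd1 at 5 weeks. These were Ngfr, the p75 neurotrophin receptor, with a median of 6991 in WT and signals of 2436, 164, 1280 and 17492 in rd1 (-1.99), and Sort1, the sortilin gene that pairs with it, with medians of 2320 and 86.6 (-1.21). Both were on in 5 of 5 Rhod-ko 8-week cells. At P13 and from 8 to 25 weeks none differed.

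In the GDNF list of 10 genes 8 had both medians under the floor in Rhod-ko at 8 weeks and in WT, and 2 were lower there. Gfra2, the coreceptor of neurturin, was on in every WT cell, at 11041, 20134, 16122, 7668 and 10999. It read 713, 1353, 1175, 2212 and 1301 in Rhod-ko at 8 weeks, a difference of medians of -3.08 with no overlap between the groups. Unlike Ptn, Gfra2 was also low in 3 of 5 Rhod-ko 25-week cells (176 to 586, with A1 and A4 at 12709 and 10956), where the difference from WT was -3.46. All 4 rd1 5-week cells were on, at 5708 to 60561. Ncam1, the cell adhesion molecule that can act as a GDNF receptor, was on in all 5 cells at 8 weeks with a difference of -1.36, and was 2.65 higher in rd1 than in the congenic cells at P13. No other gene of the list differed 2-fold in any comparison.

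The FGF list of 13 genes gave 1 lower and none higher in Rhod-ko at 8 weeks and again at 25 weeks. This was Fgf13, an intracellular member of the family that acts on sodium channels, with medians of 3928 in WT, 1646 at 8 weeks (-1.25) and 1933 at 25 weeks (-1.02). Single cells ran from 104 to 29000 in WT, 279 to 5108 at 8 weeks and 1305 to 14019 at 25 weeks, so the groups overlapped. In rd1 at 5 weeks and from 8 to 25 weeks none differed. Fgfr1 and Fgf13 were higher in rd1 than in the congenic cells at P13, by 2.37 and 1.46. Fgfr1, the receptor of FGF2, was on in 3 of 5 WT cells and in 4 of 5 cells of each Rhod-ko group.

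In the IGF list of 11 genes 2 were lower in Rhod-ko at 8 weeks, the receptor gene Igf1r (-1.34) and Igfbp4, which binds IGFs in the extracellular space (-3.25). Igf1r was on in no 8-week cell (215 to 908) and in 3 of 5 WT cells. Igfbp4 was on in 4 of 5 WT cells (3197 to 37335) and in 8-week cell 7 alone (20000), and it was on in 3 of 5 cells at 25 weeks. Igf2, the fetal insulin-like factor, was on in no Rhod-ko cell at 8 weeks, in 4 of 5 at 25 weeks and in 4 of 4 rd1 5-week cells (4107 to 7168), with median differences from WT of 2.31 and 2.76 in the last groups.

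Igf2 was on in WT cells MG22 and MG15 (4558 and 6150), so WT overlapped these groups. Igf1r was also lower at 25 weeks (-1.13). In rd1 at 5 weeks Igfbp5 was higher (1.05) and Igfbp4 lower (-3.25). From 8 to 25 weeks Igfbp4 (3.10) and Igf2 (2.31) were higher. At P13 3 genes of the list were higher and 3 lower in rd1, namely Igf2 (1.43), Igfbp4 (1.07) and Igfbp5 (1.01) against Igfbp7 (-4.98), Igfbp3 (-1.70) and the insulin receptor gene Insr (-1.08). Igfbp7 is strong in vessels and was on in all 3 congenic cells and in rd1 cell A1.

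Of 10 VEGF family genes only Kdr, the main VEGF receptor of endothelium, differed in the 8-week Rhod-ko cells. Signals passed 2000 in 2 of 5 WT cells (16163 and 15678 in MG15 and MG3) and in all 5 Rhod-ko cells at each age, with median differences of 3.75 and 2.33, and in 3 of 4 rd1 5-week cells (2.14). Kdr is also one of the 14 vascular markers, of which at most 4 were on in a Rhod-ko cell. At 25 weeks Pgf (1.74) and Vegfb (1.43) were higher as well, each on in 3 of 5 cells. Both overlapped WT. Pgf was on in WT cells MG1 and MG16 (3984 and 10630), with MG16 above every 25-week cell (at most 5620.5). Vegfb was on in WT cell MG3 (2163). From 8 to 25 weeks Pgf (1.74), Flt1 (1.67) and Vegfb (1.27) were higher and Kdr lower (-1.42). The highest Pgf signal of all cells was nevertheless in 8-week cell 1, at 20385. At P13, 5 of the 10 were lower in rd1, led by Vegfc (-2.81), Nrp2 (-1.92) and Flt1 (-1.47), genes of vessels. Flt1 and Nrp1 were on in all 3 congenic cells, and the median difference of the list was -0.96.

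The 15 other measured survival factors and receptors gave 6 higher and 1 lower in Rhod-ko at 8 weeks, 4 higher and 2 lower at 25 weeks, and 4 higher and 1 lower in rd1 at 5 weeks. Over all genes the shares higher and lower were 6.17% and 5.12%, 7.9% and 3.7%, and 6.35% and 4.25%. The list was chosen with earlier results of these data known, so its counts are a description. In all 3 comparisons the largest were Psap, the precursor of saposins and of the secreted prosaposin, the growth factor gene Tgfb2 and Cntfr, the receptor of ciliary neurotrophic factor. Psap was on in 2 of 5 WT cells, in every cell of all other groups, and 3.97, 3.09 and 3.87 above a WT median that the floor sets. Tgfb2 was 3.42, 2.38 and 2.78 above WT and Cntfr 2.32, 2.16 and 1.75. No WT cell had Cntfr on (17.3 to 856), against 4 of 5 Rhod-ko 8-week, 3 of 5 Rhod-ko 25-week and 4 of 4 rd1 5-week cells. Grn, the progranulin gene, was on in all 4 rd1 5-week and all 3 congenic cells and in 2 of 5 WT cells.

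Hbegf, a ligand of the EGF receptor, was on in 3 of 5 WT cells (2281, 11103 and 4028) and in 1 of the 14 cells of these disease groups, with a median difference of -1.19 in each that the floor sets. Dkk3, a secreted factor of the Dickkopf family and an MGC marker, was on in every WT and Rhod-ko cell, and its median difference from WT was -1.10 at 25 weeks. At P13 Dkk3 (3.40) and Tgfb2 (1.49) were higher in rd1, and Pdgfa (-2.08) and Manf (-1.29) lower. From 8 to 25 weeks Il6st (-1.27), Tgfb2 (-1.04) and Egfr (-1.02) were lower and none was higher. Cntf and Cdnf were not analysed here.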

How the data were processed

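The deposited values are signal intensities on a linear scale, which the authors computed with MAS5 from 1 array per cell after oligo-dT reverse transcription, poly(A) tailing and 35 cycles of PCR. The MAS5 version was not stated in the sources used here. The 2% trimmed mean of every array was checked and was near 500, so signals are relative to the whole array. Probe sets with 1 gene symbol (34958 of 45101) were used, and the strongest of a gene's probe sets in a cell gave its signal, following the methods of the study. Of these probe sets, 34754 matched the RefSeq gene table by Entrez number. The number of arrays and of cells limits the precision.

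Group medians were compared on the log2 scale after a floor of 1000, and a difference of at least 1 (2-fold) was called by size alone. As cells are not tied to animals, no test was run. Of the pathway lists, genes at least 2-fold different are named where they were among the 3 largest of their list in a comparison, as well as genes on in every cell of a group. The genes most like Ptn and Mdk were the 5 highest and 3 lowest by Pearson r among genes on in at least 5 cells. Ptprz1, Vegfa and Ntrk2 were on in fewer cells and were not compared in this way. The members and all lists were chosen with earlier results of these data known. The calculation of differences was tested on simulated data. Alternatives were other probe set rules, scalings, floors (500 and 2000), thresholds (500, 1000 and 10000), group means, and leaving out cells. Software was pandas 2.3.3 under Python 3.11.15, with SciPy 1.17.1, NumPy 2.4.6 and matplotlib 3.10.9.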

Additional observations from a re-analysis of the deposited data

Results flagged for a closer look

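In 7 of 17 pairs of a gene and a group of 4 or 5 cells that held any signal over 1000, 1 cell lay far from the others by Dixon's criterion on floored log2 signals. The criterion's rate of about 1 in 20 is for normal values and does not hold for floored ones, so the count is a description. In 5 of the 7 the other cells all lay at the floor, which makes the gap the whole range and the flag certain. Ptn in rd1 at P13 had a far low cell, B1 at 5520, a cell with 10 vascular markers on. Mdk had a far high cell in the same group, B3 at 1518, under the threshold of 2000. Ptprz1 read 1880 in WT cell MG22, which was also the only cell with Ptn probe set 1443173_at on, at 18382. Igf1 read 1091 in Rhod-ko 8-week cell 8 and 7428 in rd1 5-week cell A1. Vegfa read 1295 in Rhod-ko 8-week cell 7, which had 6 microglia markers on. Ntrk2 read 2292 in rd1 P13 cell B4.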

How the results depend on the processing

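Of 349 alternative values for 23 results, 306 stayed within 1 SD between cells (or within 1.5 times of a count), 43 moved, and no difference that was called 2-fold changed sign. The Ptn difference of Rhod-ko at 8 weeks from WT stayed at or below -3.84 except with single probe sets: it was -3.84 with a floor of 2000, -4.14 without cells 7 and 8, -0.0027 with 1416211_a_at alone and 0 with 1443173_at alone, and -4.85 to -4.47 with 1 cell left out. For 25 weeks against WT it was -2.04 at the same 90th percentile, -0.0027 and 0 with those probe sets, and -1.42 to -0.73 with 1 cell left out. For 25 against 8 weeks it was 3.24 at the same 90th percentile, 2.90 with a floor of 2000 and 3.25 by group means. It was 3.19 without 8-week cells 7 and 8, 0 with either probe set, and 3.38 to 3.94 with 1 cell left out. For all values of -0.0027 and 0 the floor set the difference. For rd1 at 5 weeks, where the value of -0.67 was not called, it changed sign to 0.71 with 1416211_a_at and was -1.31 to -0.02 with 1 cell left out, and at P13 0.15 to 2.15.

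With a floor of 500, 1 member (Ntrk2) was higher in Rhod-ko at 8 weeks than in WT and 1 lower at 25 than at 8 weeks. By group means and by the 90th percentile 1 member (Ptn) was lower at 25 weeks than in WT, and by group means 1 (Ptn) was higher in rd1 at P13. With A5 and A6 as separate cells 1 member (Mdk) was higher in rd1 at 5 weeks. With 1 cell left out, the counts of members higher and lower ranged from 0 to 1 at 25 weeks and in rd1 at 5 weeks, and of those higher from 0 to 1 at P13. The causes were not tested.

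Pairs of a member and a cell with the member on numbered 30 of 243, and 52, 70 or 17 with thresholds of 1000, 500 or 10000. Members on in no cell then numbered 3, 1 or 8 in place of 5. Rhod-ko 8-week cells with Ptn on numbered 3 and 4 at thresholds of 1000 and 500 and 2 under either scaling, and 3 Rhod-ko 25-week cells passed 10000. Leaving out all P13 cells with 4 or more vascular markers on could not be run, as no congenic cell remained; leaving out those of rd1 alone was chosen after seeing the data. No paired analysis was possible because no label pairs cells across groups and no test was run. Low signals after 35 cycles of PCR do not tell an absent RNA from one lost in amplification.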
